A study of Mus musculus with 96 samples.

Results

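The mouse mitochondrial genome is a circle that encodes 13 proteins of the respiratory chain and ATP synthase, 2 ribosomal RNAs (rRNAs) and 22 transfer RNAs (tRNAs), and its transcripts were followed here from the oocyte to the morula. The members are the gene rows of the deposited count table whose symbol in the GENCODE annotation starts with mt-: 37 of 55401 gene rows. They divide into 13 protein genes, 2 rRNA genes and 22 tRNA genes, and 9 of the 37 lie on the minus strand of chromosome M. The study profiled 96 single C57BL/6J mouse oocytes and embryos, from females superovulated with PMSG and then hCG 46 h later and mated with males of the same strain. The groups were oocytes (8 libraries), embryos at 0 h (5), 2 h (5), 4 h (2), 6 h (3), 8 h (5), 10 h (5), 12 h (5), 14 h (5), 16 h (8), 18 h (9), 20 h (5), 22 h (10), 24 h (6) and 36 h (8) after fertilization, and morulae at about 84 h (7). No embryo was treated, and all groups share the superovulation of the donor females and, per the labels' protocols, culture in KSOM after removal of cumulus cells with hyaluronidase. All embryos from 0 h up to 36 h belong to a single cohort. The oocytes formed a separate batch, and so did the morulae, so batch and stage cannot be told apart where either is compared with the cohort.

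Transcription of this genome runs from promoters on both strands through nearly its whole length, and the long precursors are cut mostly at the tRNAs that separate the mRNAs and rRNAs. The nuclear-encoded polymerase POLRMT with TFAM and TFB2M makes the RNA, and the mitochondrial poly(A) polymerase MTPAP adds tails to mRNAs. Oocytes hold very many copies of the mitochondrial genome, and in mouse these copies are divided among the blastomeres without replication during the first cleavages. The libraries were made with SMART-Seq v4, which primes cDNA on poly(A) tails and does not mark strand. A change in the amount of an RNA and a change in its tail therefore cannot be told apart here, and neither can fewer mitochondria and less RNA per mitochondrion. All levels are relative to the other counts of the same library. A change in the amount per embryo therefore cannot be told apart from an opposite change in the other RNA. Reads of a minus-strand gene also cannot be told apart from reads of the uncut RNA of the opposite strand.

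Several members share nearly all of their sequence with pseudogenes annotated on chromosome 1, and this bears on where their reads were counted. The annotation holds 7 such copies at 99% identity or more over at least 200 bases, lying together between positions 24611535 and 24616197 of chromosome 1 (GRCm38, minus strand). Gm28661 copies 681 bases of mt-Co2 (chrM 7013 to 7696, plus strand), Gm10925 copies 678 bases of mt-Atp6 (chrM 7927 to 8607, plus strand), and Gm28437 copies 783 bases of mt-Co3 (chrM 8607 to 9390, plus strand), each without a mismatch. Gm28439 copies the first 876 bases of mt-Nd4 and Gm10222 copies 294 bases of mt-Nd4l, also without a mismatch. Gm28438 copies 345 bases of mt-Nd3 and Gm29216 copies 483 bases of mt-Co1 from base 1063 on, with 1 mismatch each. Counted from 1 at the first base of the mitochondrial gene, with the base of the mitochondrial gene first, these are T3C in mt-Nd3 and A1066T in mt-Co1. The windows below, from GENCODE M21 transcripts, are shown because they leave a short read little or nothing to choose by: capitals mark the mismatched base, and pairs without a mismatch are written once.
mt-Nd3, bases 1 to 60: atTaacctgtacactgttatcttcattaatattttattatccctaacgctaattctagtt
Gm28438: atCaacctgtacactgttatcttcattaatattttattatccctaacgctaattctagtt
mt-Co1, bases 1063 to 1122: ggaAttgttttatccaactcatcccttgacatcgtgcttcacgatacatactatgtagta
Gm29216: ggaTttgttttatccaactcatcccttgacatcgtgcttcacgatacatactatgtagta
mt-Co2, bases 311 to 370, and Gm28661: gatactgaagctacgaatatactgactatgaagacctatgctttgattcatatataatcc
mt-Nd4, bases 409 to 468, and Gm28439: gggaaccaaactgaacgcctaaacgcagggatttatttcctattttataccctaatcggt

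The split of counts between the mitochondrial row and its copy differed from pair to pair. Summed over all libraries, the mitochondrial row held 0.443% of the counts of mt-Co3 and Gm28437 together, 0.202% of those of mt-Atp6 and Gm10925, and 0.285% of those of mt-Co2 and Gm28661. By contrast it held 99.8% for mt-Nd4 and 99.4% for mt-Nd4l, whose copies are likewise identical. The pairs with 1 mismatch lay between, at 56.4% for mt-Nd3 and 64.1% for mt-Co1. Gm29216 aligns over only 483 of the 1545 bases of mt-Co1, and Gm28439 over 876 of the 1378 bases of mt-Nd4. Reads from the rest of these 2 genes do not match those copies. The percentages of different pairs are therefore not like for like, and their relation to mismatches was not tested. Median levels over the 96 libraries were taken in CPM, counts scaled to a common total of counts in gene rows. They were 3.91 for mt-Co2 against 1643 for Gm28661, 10.97 for mt-Atp6 against 4667 for Gm10925, and 9.55 for mt-Co3 against 2018 for Gm28437. The rows of these mitochondrial genes therefore hold a small part of the reads that match them, and reads of the gene and of its copy cannot be told apart by sequence. mt-Atp8, which overlaps the first 43 bases of mt-Atp6, had a median of 1.83 CPM; only those 43 bases of it lie in an annotated copy (Gm10925). Over the 43 shared bases, reads of mt-Atp8 and mt-Atp6 cannot be told apart either. Levels are given below as deposited, and the counts of copies were added to their mitochondrial gene as an alternative, which for the tests was chosen after the data were seen.

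**Figure D1:**
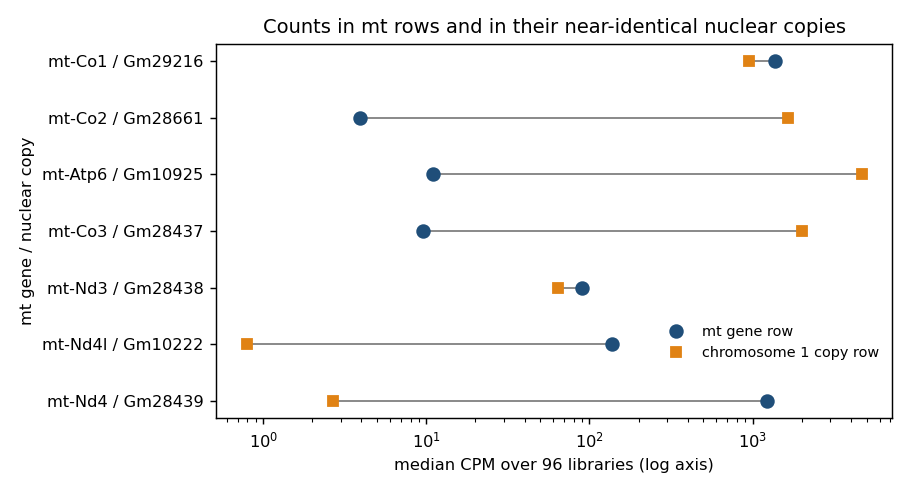
Median CPM over 96 libraries (log axis) of 7 mitochondrial gene rows (circles) and of their near-identical chromosome 1 copies (squares). For mt-Co2, mt-Atp6 and mt-Co3 the copy's row holds over 1600 CPM against at most 10.97 CPM in the mitochondrial row, and for mt-Nd4 and mt-Nd4l the order is the other way round.

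Library totals ranged from 10378 to 6795311 gene counts, with a median of 2099222. The lowest total belongs to morula replicate 4, in which oocyte markers summed to 3758 CPM, against 55.8 to 107.03 CPM in the other morulae. The next lowest total of any library was 564538. The library labelled 10 h replicate 5 went against its label. Its oocyte markers (Gdf9, Bmp15, Zp3, Mos and H1foo) summed to 26.5 CPM, against a group median of 13398 CPM. Cumulus and granulosa cell markers summed there to 13329 CPM and morula markers to 10169 CPM. The median oocyte marker sum was 18048 CPM in the 0 h embryos, 1338 CPM in those of 36 h and 67.6 CPM in morulae, and the morula marker sum had its highest median, 3430.3 CPM, in morulae. The 2-cell marker sum had its highest median, 899 CPM, at 36 h.

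Summed over the 13 protein genes, mitochondrial mRNA made up a low share of gene counts after fertilization and its highest share at the late 2-cell stage. The median share was 1.48% for oocytes. For embryos of 0, 2, 4, 6 and 8 h it was 0.621%, 0.400%, 0.498%, 0.446% and 0.549%, for those of 10, 12, 14 and 16 h 0.697%, 1.19%, 0.900% and 0.901%, and for those of 18, 20, 22, 24 and 36 h 0.771%, 0.646%, 0.859%, 2.40% and 8.15%. For morulae it was 3.21%. Within the cohort of 0 h to 36 h, the shares at 36 h (6.32% to 14.9%) lay above those of every other library of the cohort, of which the highest was 3.38% at 24 h. Oocyte shares (1.18% to 1.65%) did not overlap those at 0 h (0.396% to 0.784%), and morula shares (2.24% to 4.55%) did not overlap those at 36 h. Shares at 12 h (0.864% to 1.73%) did not overlap those at 10 h (0.555% to 0.812%), and the other neighbouring hours from 2 h to 22 h overlapped. The 24 h libraries divided into 4 at 1.92% to 3.38% and 2 at 1.06% and 1.13%. With the counts of the chromosome 1 copies added, the medians were 2.81% for oocytes, 5.01% for morulae, and 1.14%, 1.97%, 4.04% and 14.3% for embryos of 0, 12, 24 and 36 h. The groups of 4 h and 6 h rest on 2 and 3 libraries, and the range at 6 h was 0.232% to 0.810%.

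**Figure D2:**
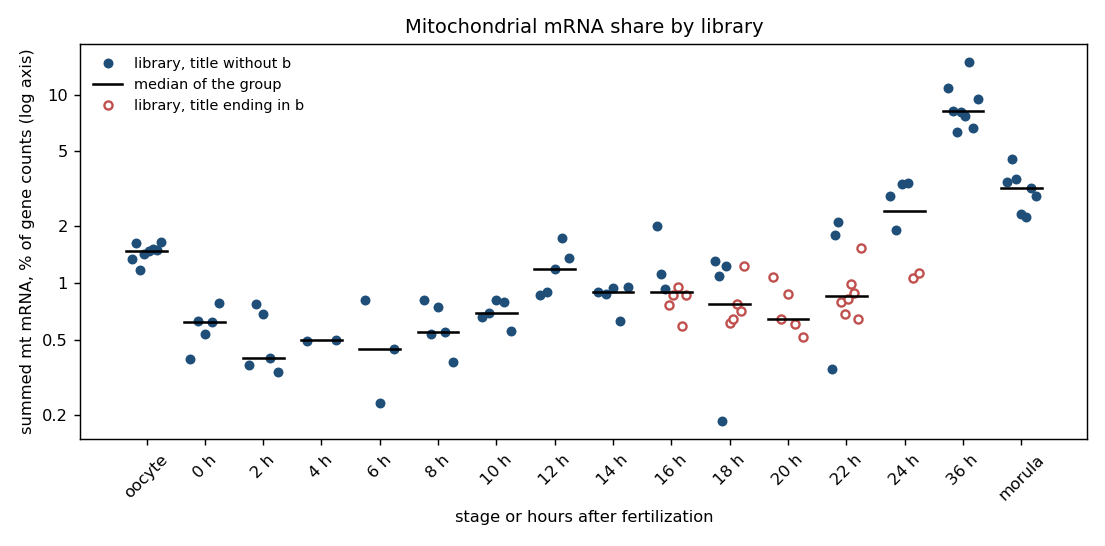
Summed counts of the 13 mitochondrial protein genes as a percentage of gene counts (log axis) in each of 96 libraries, by stage or hours after fertilization; bars are group medians, and open circles are libraries whose title ends in the letter b. The 8 libraries of 36 h sit between 6.32% and 14.9%, above all others.

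Per kilobase of annotated gene, mt-Cytb, the cytochrome b subunit of complex III, had the highest median level among the protein and rRNA genes in all 16 groups, as deposited. Its median was 4729 CPM per kb in oocytes. For embryos of 0, 12, 24 and 36 h it was 1663, 4212, 7626 and 31052, and for morulae 10848. mt-Nd1, a membrane subunit of complex I, was next in oocytes and at each hour other than 16 h, 18 h, 20 h and 22 h, where the 16S rRNA gene mt-Rnr2 was. In morulae mt-Rnr2 (6003 CPM per kb) and mt-Nd2 (4680.0) came between mt-Cytb and mt-Nd1 (4426). At 36 h, by contrast, mt-Nd1 stood at 12866 CPM per kb, mt-Nd2 at 6579 and mt-Rnr2 at 3597. With the copies added, mt-Atp6, a membrane subunit of ATP synthase, ranked first over all libraries, at 6871 CPM per kb as a median, ahead of mt-Cytb (3269), mt-Co3 (2584) and mt-Co2 (2406). The lowest levels with copies added were those of mt-Nd5 (328 CPM per kb), mt-Nd6 (256) and mt-Atp8 (8.98). No copy was added to any of these, and unannotated copies were not sought.

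The tRNAs, which carry amino acids to the mitochondrial ribosome, were sparse, and they summed to 0.0665% of gene counts as a median at 36 h. mt-Tk was listed at 0 in all 96 libraries, which for its row over the summed counts allows up to 0.0121 CPM at 3 counts, and mt-Td had counts in 6 libraries. mt-Tk and mt-Atp8 lie between mt-Co2 and mt-Atp6, 230 bases apart, whose chromosome 1 copies lie 233 bases apart. mt-Td lies between mt-Co1 and mt-Co2, which also have copies. Copies were sought among annotated transcripts only. Whether reads of these genes fell on chromosome 1 sequence that no row counts was not tested. The tRNA with the highest mean was mt-Tl1, which lies between mt-Rnr2 and mt-Nd1 (chrM 2676 to 2750, plus strand), at 53.1 CPM over all libraries. mt-Tm (34.0 CPM) and mt-Tq (22.0 CPM), between mt-Nd1 and mt-Nd2, came next. The sequence of mt-Tl1 is shown because it is the cut point between the 16S rRNA and the first mRNA of the plus strand. Whether its counts come from the cut tRNA or from the precursor cannot be told apart here.
mt-Tl1: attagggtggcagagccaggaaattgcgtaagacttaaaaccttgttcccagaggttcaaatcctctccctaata

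The ends of the protein genes are shown because the libraries read polyadenylated RNA and because mt-Co3, mt-Nd4 and mt-Cytb end in 1 base of a stop codon, which in mitochondria is completed by the poly(A) tail. The last 30 bases are given with the stop letters in capitals, beside 2 members with a whole stop codon. The light-strand gene mt-Nd6 is known from human mitochondria as an mRNA without a long tail.
mt-Cytb: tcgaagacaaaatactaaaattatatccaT
mt-Nd4: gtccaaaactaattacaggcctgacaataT
mt-Co3: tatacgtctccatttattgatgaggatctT
mt-Nd1: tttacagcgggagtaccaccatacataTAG
mt-Nd6: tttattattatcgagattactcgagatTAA

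Relative to other gene counts, most mitochondrial transcripts tested were lower in 0 h embryos than in oocytes. For mt-Cytb the 0 h embryos had 1436, 1903, 1842, 2471 and 2811 CPM, against a lowest, median and highest value of 4773, 5409.9 and 5998 CPM in oocytes. The groups did not overlap, and the fitted change was -1.32 ± 0.14 log2 units (SE, adjusted p = 4.51e-08) by edgeR's quasi-likelihood test with Benjamini-Hochberg adjustment. mt-Co1, the catalytic subunit of cytochrome c oxidase, had 526.15, 1044, 759, 869 and 1140.4 CPM at 0 h, against 1803, 2782 and 3120.4 CPM as the lowest, median and highest oocyte values. Here too the groups did not overlap, and the change was -1.59 ± 0.16 log2 units (SE, adjusted p = 3.76e-08). The small complex I subunits had the 2 smallest adjusted p-values among the members. mt-Nd4l had 51.6, 80.2, 51.5, 57.8 and 63.6 CPM at 0 h, against 179, 214 and 263 CPM in oocytes, a change of -1.84 ± 0.14 log2 units (SE, adjusted p = 9.78e-11). mt-Nd3 changed by -1.97 ± 0.16 log2 units (SE, adjusted p = 6.39e-10).

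Of the protein genes 12 of 13 were tested, and 11 were lower at 0 h and 0 higher. Over all members it was 20 lower and 0 higher of 26 tested (also 0 higher unadjusted and by DESeq2), beside 20.5% of all 9561 genes called lower and 25.3% higher. The median log2 change was -1.33 for the protein genes, beside 0.03 for all genes. The protein gene without a call was mt-Nd6, a complex I subunit and the one mRNA of the minus strand, with 104.39, 162, 134.94, 104.18 and 149 CPM at 0 h, against 124.44, 174 and 218 CPM in oocytes. These overlap, and the change was -0.32 ± 0.15 log2 units (SE, adjusted p = 0.0834). Without 0h replicate 2 it was -0.43 (adjusted p = 0.0369), without 0h replicate 5 -0.40 (0.0498), without oocyte replicate 1 -0.38 (0.0431) and without oocyte replicate 3 -0.37 (0.0497). It was also called with mitochondrial genes left out of the scaling (-0.38, adjusted p = 0.046), with repeats in the library size (-0.37, 0.0474) and with copies added (-0.38, 0.0463). Both rRNAs were lower: mt-Rnr1, the 12S rRNA, changed by -1.65 ± 0.21 log2 units (SE, adjusted p = 3.56e-06), and mt-Rnr2, the 16S rRNA, by -0.48 ± 0.18 log2 units (SE, adjusted p = 0.0302). The call of mt-Rnr2 was lost without 0h replicate 5 (-0.42, adjusted p = 0.0522), oocyte replicate 2 (-0.40, 0.0525) or oocyte replicate 8 (-0.42, 0.0556). Without 0h replicates 1 and 2, a choice made after seeing the data, it was -0.86 (adjusted p = 0.000289). Cumulus and granulosa cell markers summed to a median of 124.76 CPM at 0 h and 560.5 CPM in oocytes, and their part in these differences was not tested.

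To ask which members moved against the rest, the same test was run with each library scaled to its summed mitochondrial mRNA, a scale that does not depend on nuclear transcripts. The adjustment of p still ran over all genes, so it is mild where many of them are called. The sum is of the rows as deposited, so most reads that match mt-Co2, mt-Atp6 and mt-Co3 are left out of it. At 0 h 6 of 26 members were higher against oocytes and 2 lower (8 and 3 unadjusted), and 4 of the 6 lie on the minus strand, of which 6 genes were tested. On this scale 80.4% of all genes were called higher and 0.899% lower, with the median of all genes 1.37 higher, so calls among members are not read against these shares. mt-Nd6 rose by 1.00 ± 0.19 log2 units (SE, adjusted p = 1.07e-05), and its minus-strand neighbour mt-Te, the glutamate tRNA, by 1.42 ± 0.39 log2 units (SE, adjusted p = 0.00127). mt-Rnr2 rose by 0.93 ± 0.21 log2 units (SE, adjusted p = 0.000208). mt-Ta and mt-Tn, minus-strand tRNAs beside each other, rose by 1.52 and 1.55, and mt-Tw, their plus-strand neighbour, by 1.12; these 3 were chosen after their values were seen. mt-Nd3 changed by -0.66 ± 0.21 log2 units (SE, adjusted p = 0.00429) and mt-Nd4l by -0.51 ± 0.20 log2 units (SE, adjusted p = 0.0161). Per 100 counts of mt-Nd5, which lies beside it on the other strand, mt-Nd6 had 32.0 to 43.5 counts at 0 h, against 17.8 to 25.4 in oocytes, without overlap. Markers of blood and oviduct summed to 2439 and 440.5 CPM in 0h replicates 1 and 2, against 25.9 to 39.2 CPM in the other 3. Over all 0 h libraries the oviduct glycoprotein gene Ovgp1 ran only from 11.9 to 32.4 CPM. The globins Hba-a1 and Hbb-bs reached 1045 and 777 CPM there. The rRNA counts per 100 mitochondrial mRNA counts were 43.7 and 31.8 in the same 2 libraries, against 12.6 to 21.7 in the others. Without 0h replicate 1, mt-Rnr2 was still called higher, mt-Rnr1 was lower on this scale (-0.65, adjusted p = 0.00331), and 4 members were lower in all, beside 1.15% of genes. Without both libraries mt-Rnr2 was no longer called (0.34, adjusted p = 0.0983) and mt-Rnr1 was lower (-0.96, adjusted p = 6.09e-05). The members called were then 2 higher, mt-Nd6 (0.85, adjusted p = 0.000109) and mt-Te (1.404, adjusted p = 0.00515), and 4 lower, beside 68.3% and 1.11% of genes.

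Between 2 h and 8 h 0 of 33 members tested were called against 0 h in the edgeR fit of all 81 embryos of the cohort. At an unadjusted p under 0.05 the 2, 4, 6 and 8 h embryos had 4, 0, 2 and 1 members lower, and those of 8 h had 1 higher. Of all genes, 0.00538%, 0.0431%, 1.33% and 5.97% were called in either direction in these 4 contrasts. The median of mt-Rnr1 was 143, 112.31, 60.9, 58.7, 56.4 and 65.4 CPM in embryos of 0, 2, 4, 6, 8 and 10 h. At 10 h the count was 0 higher and 0 lower (2 higher and 1 lower unadjusted), beside 14.1% of genes called higher and 7.39% lower. Without 10h replicate 5, the library that goes against its label, 1 member was higher, beside 5.98% of genes.

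From 12 h on members were called higher, in contrasts that share the 0 h libraries. The numbers were 7, 2, 6, 4, 5, 7 and 18 of 33 for embryos of 12, 14, 16, 18, 20, 22 and 24 h, beside 4.26%, 2.41%, 5.99%, 7.19%, 5.24%, 7.25% and 12.3% of all genes. At 36 h all 33 members tested were higher, beside 34.4% of genes. In each of these contrasts 0 members were lower, beside 4.52%, 3.69%, 6.03%, 7.53%, 3.83%, 5.85%, 8.59% and 20.3% of genes. Unadjusted, 3 were lower at 16 h and 0 in the others. Without 10h replicate 5, which also enters the shared spread, 8 were higher at 20 h and 12 at 22 h, beside 9.21% and 11.9% of genes.

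At 12 h most mitochondrial mRNAs were higher than at 0 h in the fit of these 2 groups. mt-Cytb had 4111, 3309, 4819, 7055 and 5753 CPM at 12 h, against 1436, 1903, 1842, 2471 and 2811 CPM at 0 h. Every 12 h embryo lay above every 0 h embryo, and the change was 1.54 ± 0.25 log2 units (SE, adjusted p = 0.00013). mt-Nd5, a large membrane subunit of complex I, had 386, 805, 931, 1164 and 907 CPM at 12 h, against 240.1, 408, 336, 324 and 464 CPM at 0 h. Replicate 1 of 12 h lay inside the range of 0 h, and the change was 1.53 ± 0.26 log2 units (SE, adjusted p = 0.000193). mt-Nd4l changed by 1.60 ± 0.28 log2 units (SE, adjusted p = 0.000207), mt-Co1 by 1.49 ± 0.30 log2 units (SE, adjusted p = 0.000709) and mt-Nd1 by 1.13 ± 0.23 log2 units (SE, adjusted p = 0.000918). Of the protein genes 8 of 11 tested were higher, and over all members 11 of 18 tested were higher and 0 lower (also 0 unadjusted and by DESeq2). Of 8232 genes, 19.6% were called higher and 19.4% lower. The median change of the protein genes was 0.92, beside -0.02 for all genes. mt-Nd3 changed by 0.92 ± 0.32 log2 units (SE, adjusted p = 0.0305), a call lost without any of 0h replicates 1, 3 and 4 and 12h replicates 3 and 4, where the adjusted p ran from 0.0685 to 0.103.

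The rRNAs were not called in this comparison. mt-Rnr1 had 118.53, 119.38, 124.39, 134.08 and 302 CPM at 12 h, against 260.0, 239, 132.64, 89.3 and 143 CPM at 0 h. mt-Rnr2 had 809, 834, 975, 1111 and 1937 CPM at 12 h, against 1472, 1765, 1026, 815 and 848 CPM at 0 h. Both overlap, with changes of 0.16 ± 0.27 log2 units (SE, adjusted p = 0.659) and 0.21 ± 0.24 log2 units (SE, adjusted p = 0.509). Against the summed mitochondrial mRNA both were lower at 12 h, mt-Rnr1 by -1.25 ± 0.38 log2 units (SE, adjusted p = 0.00599) and mt-Rnr2 by -1.19 ± 0.33 log2 units (SE, adjusted p = 0.00301). mt-Nd6 was the other of 3 members lower of 18 tested on that scale, at -0.83 ± 0.31 log2 units (SE, adjusted p = 0.0194), beside 63.7% of all genes called in either direction. With the copies added to the total it was no longer called and the 2 rRNAs were, beside 54.5% of genes called lower. These calls rest on 0h replicates 1 and 2, the libraries high in rRNA and in the sum of blood and oviduct markers, though not in Ovgp1. That sum was at most 8.40 CPM at 12 h. Counts of rRNA per 100 mitochondrial mRNA counts were 7.20 to 16.4 at 12 h, against 12.6 to 21.7 in the other 0 h libraries, which overlap. Without both libraries 0 members were lower (1 unadjusted), beside 40.5% of genes lower and 0.453% higher, and mt-Rnr1 was -0.50 (adjusted p = 0.278), mt-Rnr2 -0.60 (0.15) and mt-Nd6 -0.68 (0.0967). Without 0h replicate 1 alone the call of mt-Rnr1 was lost (-0.81, adjusted p = 0.0517), and without 0h replicate 3 that of mt-Nd6 (-0.79, 0.0529). The tRNAs mt-Tl1 and mt-Tm, which lie next to 5′ protein genes, went up as well. mt-Tl1 had 47.04, 36.4, 74.2, 84.9 and 45.2 CPM at 12 h, against 12.9, 20.0, 17.0, 18.2 and 25.8 CPM at 0 h, a change of 1.91 ± 0.32 log2 units (SE, adjusted p = 0.000146), and mt-Tm changed by 1.82 ± 0.32 log2 units (SE, adjusted p = 0.000222).

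**Figure D3:**
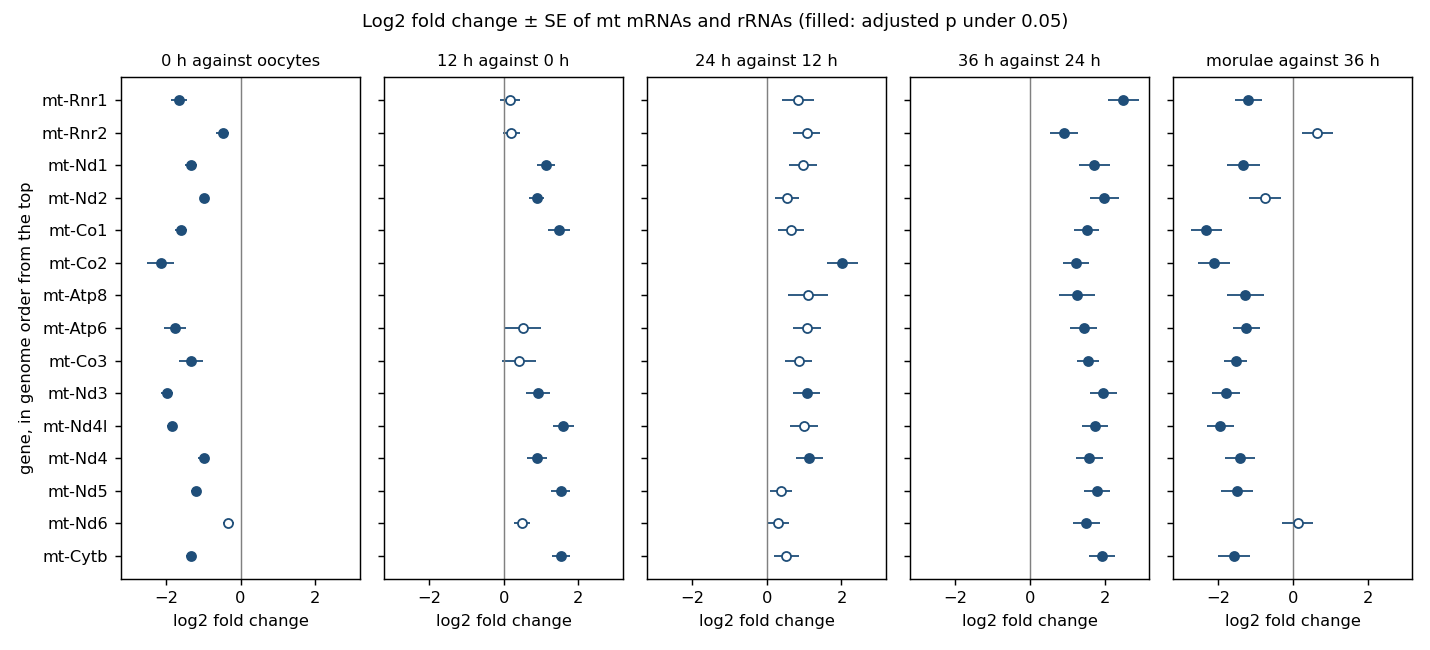
Log2 fold change with its standard error for the 13 mRNAs and 2 rRNAs in 5 comparisons, in genome order from the top; filled points passed an adjusted p of 0.05, and missing points were not tested. Protein genes lie left of 0 at 0 h against oocytes and right of 0 at 36 h against 24 h, and mt-Nd6 and mt-Rnr2 lie apart from most others in morulae against 36 h.

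From 12 h to 24 h few members passed the test. mt-Co2, an electron-accepting subunit of cytochrome c oxidase, changed by 2.03 ± 0.41 log2 units (SE, adjusted p = 0.0041) on its small deposited row, and by 1.20 ± 0.31 with Gm28661 added (SE, adjusted p = 0.0134). mt-Nd4, a membrane subunit of complex I, had a lowest, median and highest value of 1435, 3562 and 5209 CPM at 24 h, against 868, 976, 1240.3, 2098 and 1226 CPM at 12 h, and changed by 1.14 ± 0.36 log2 units (SE, adjusted p = 0.0344). mt-Nd3 changed by 1.07 ± 0.36 log2 units (SE, adjusted p = 0.0439) and the proline tRNA mt-Tp by 1.47 ± 0.51 log2 units (SE, adjusted p = 0.0487). These were the 4 of 29 tested members called higher, and 0 were lower (also 0 unadjusted and 0 by DESeq2), beside 13.4% of 11107 genes called higher and 8.32% lower. The count rests on single libraries, and the shares of all genes called without each of them are not given here. It was 1 without any of 12h replicates 1, 2 and 3 and 24h replicates 3 and 4, 2 without 12h replicate 5 or 24h replicates 1 or 2, 7 without 24h replicate 5 and 8 without 12h replicate 4. Without both 24 h libraries whose titles end in b it was 9, 8 of them protein genes, beside 19.2% of genes. Against the summed mitochondrial mRNA 0 of 29 members were called (1 higher and 3 lower unadjusted), beside 1.08% of genes higher and 2.45% lower.

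At 36 h, the late 2-cell stage, mRNAs, rRNAs and tRNAs of the mitochondria were higher than at 24 h, relative to other gene counts. mt-Cytb had a lowest, median and highest value of 26002, 35523 and 55185 CPM at 36 h, against 3719.5, 8724 and 13213 CPM at 24 h, without overlap, and changed by 1.92 ± 0.35 log2 units (SE, adjusted p = 0.000255). mt-Nd2, a membrane subunit of complex I, had 4457, 6829 and 14490.4 CPM at 36 h, against 703, 1931 and 2611 CPM at 24 h, and changed by 1.99 ± 0.39 log2 units (SE, adjusted p = 0.00044). mt-Rnr1 had 1650.0, 2019.9 and 3414 CPM at 36 h, against 122.54, 201 and 689.6 CPM at 24 h, a change of 2.51 ± 0.42 log2 units (SE, adjusted p = 0.000126). mt-Rnr2 changed by 0.91 ± 0.37 log2 units (SE, adjusted p = 0.0445), a call lost when any of 24h replicates 1, 2, 3 and 4 or 36h replicates 1 and 8 was left out (adjusted p from 0.051 to 0.0606). mt-Nd6 rose here with the others, by 1.51 ± 0.37 log2 units (SE, adjusted p = 0.00247).

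All 13 protein genes, both rRNAs and 16 of 17 tested tRNAs were called higher, 31 of 32 members in all and 0 lower, beside 28.1% of 12697 genes called higher and 25.4% lower. The median change of the protein genes was 1.59 and that of the tRNAs 1.46, beside -0.03 for all genes. The count was 28 of 33 without the 24 h libraries whose titles end in b, of which 12 were protein genes, beside 26.2% of genes. The tested tRNA without a call was mt-Th, at 0.78 ± 0.48 (SE, adjusted p = 0.18). With copies added, mt-Atp6 changed by 1.86 ± 0.35 (SE, adjusted p = 0.000362), mt-Co2 by 1.75 ± 0.32 (0.000253) and mt-Co3 by 1.92 ± 0.32 (0.000132), close to the values of the rows without copies. Against the summed mitochondrial mRNA 0 members were higher and 1 was lower of 32 tested, beside 8.0% and 62.6% of all genes; the mRNAs spanned -0.70 to 0.18 on that scale and none passed the test. The 1 was mt-Rnr2, at -1.35 ± 0.47 log2 units (SE, adjusted p = 0.014), and this rests on the 24 h libraries whose titles end in b. Without both of them mt-Rnr2 was 0.20 (adjusted p = 0.508) and mt-Rnr1 was higher, at 2.00 (adjusted p = 8.86e-06), which made 1 member higher and 0 lower, beside 6.84% and 47.2% of genes. Without 24h replicate 6 alone mt-Rnr2 was -0.67 (adjusted p = 0.15) and 0 members were lower, beside 56.5% of genes, and without 24h replicate 4 it was 3, beside 60.7%. The 2-cell marker sum was 497 to 1926 CPM at 36 h, against 7.17 to 1369 CPM at 24 h. At 24 h the sum was 1369, 1134, 20.7, 15.0, 7.30 and 7.17 CPM in replicates 4, 1, 3, 2, 5 and 6. In the same order, the shares of mitochondrial mRNA were 3.38%, 2.89%, 3.35%, 1.92%, 1.06% and 1.13%. Whether marker sum and share go together was not tested. The 7 blood and oviduct markers summed to 23.6 to 226 CPM at 36 h, against 2.66 to 17.1 CPM in the 24 h libraries without b and 81.8 and 359 CPM in those with b. At 36 h the alpha globins Hba-a1 and Hba-a2 had medians of 102.9 and 30.3 CPM, the beta globins Hbb-bs and Hbb-bt 0.149 and 0 CPM, the oviduct glycoprotein gene Ovgp1 1.55 CPM, and Alas2 and Ptprc 0 CPM. The part of these markers in the difference was not tested.

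In morulae most protein genes were lower than at 36 h, and mt-Nd2, mt-Nd6 and the rRNA mt-Rnr2 were not called with TMM scaling. mt-Co1 had a lowest, median and highest value of 1270.3, 2602 and 3754 CPM in morulae, against 8256, 11396 and 20722 CPM at 36 h, without overlap, and changed by -2.32 ± 0.41 log2 units (SE, adjusted p = 2.19e-05). mt-Cytb had 8024, 12409.6 and 15420.0 CPM in morulae, against 26002, 35523 and 55185 CPM at 36 h, also without overlap, and changed by -1.58 ± 0.42 log2 units (SE, adjusted p = 0.00166). mt-Nd4l changed by -1.94 ± 0.37 log2 units (SE, adjusted p = 4.69e-05), and with their copies added mt-Co2 changed by -2.45 ± 0.42 (SE, adjusted p = 1.3e-05) and mt-Co3 by -2.52 ± 0.40 (5.73e-06). Of the 13 protein genes 11 were lower and 0 higher, and over all members 16 of 32 were lower and 1 higher, beside 43.3% of 11234 genes called lower and 28.4% higher. The median change of the protein genes was -1.49, beside -0.53 for all genes. That median of all genes moved with the scaling, to -0.87 with RLE size factors and -0.74 with library size alone, so changes in this comparison stand beside it.

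The protein genes without a call were mt-Nd2, at -0.73 ± 0.43 log2 units (SE, adjusted p = 0.129), and mt-Nd6. The call of mt-Nd2 turned on the scaling, since it was lower with RLE size factors (-1.08, adjusted p = 0.0253), library size alone (-0.78, 0.0145) and DESeq2 (-1.07, 0.014). mt-Nd6 had 145, 629.7 and 1474 CPM in morulae, against 395, 599 and 1410.2 CPM at 36 h, a change of 0.13 ± 0.42 log2 units (SE, adjusted p = 0.798), which was -0.22 with RLE size factors. mt-Rnr1 changed by -1.19 ± 0.36 log2 units (SE, adjusted p = 0.00443). mt-Rnr2 had 5011, 9497 and 17985 CPM in morulae, against 4255, 5691 and 8843 CPM at 36 h, and changed by 0.66 ± 0.41 log2 units (SE, adjusted p = 0.153). Without morula replicate 4, the library of 10378 counts, mt-Rnr2 was called higher, at 0.94 (adjusted p = 0.00481), and the members called were 15 lower and 2 higher, beside 42.1% and 30.6% of genes. The 1 member higher with all libraries was mt-Te, at 0.85 ± 0.36 log2 units (SE, adjusted p = 0.0375), a call lost without any of 36h replicates 2, 3, 4, 5 and 7 and morula replicates 1 and 2 (adjusted p from 0.051 to 0.115).

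Against the summed mitochondrial mRNA 7 of 9 minus-strand genes were higher in morulae than at 36 h, 1 was lower and mt-Tp was not called, beside 42.7% of all genes called higher and 26.3% lower. mt-Nd6 was higher by 1.58 ± 0.28 log2 units (SE, adjusted p = 2.26e-05) and mt-Te by 2.26 ± 0.35 log2 units (SE, adjusted p = 3.28e-06). Per 100 counts of mt-Nd5, mt-Nd6 had a lowest, median and highest value of 15.0, 43.1 and 48.3 in morulae, against 12.5, 13.4 and 15.8 at 36 h; the lowest morula value is replicate 4, and the others were above every 36 h library. Of 23 plus-strand genes tested 7 were higher and 1 was lower; the difference between the strands was not tested. The counts were the same without morula replicate 4, beside 41.8% and 28.3% of genes. The 7 minus-strand genes were mt-Nd6, mt-Te, mt-Tq and the adjoining tRNAs mt-Ta, mt-Tn, mt-Tc and mt-Ty. mt-Tq was higher by 1.49 ± 0.32 log2 units (SE, adjusted p = 0.000259), and the other 4 tRNAs by 1.26, 1.33, 1.19 and 1.38. The 1 lower was mt-Ts1 (-1.72), which lies against the end of mt-Co1. mt-Ts1 and these 4 tRNAs were chosen after their values were seen. mt-Rnr2 was higher by 2.06 ± 0.25 log2 units (SE, adjusted p = 7.17e-08), whereas mt-Rnr1 changed by 0.24 ± 0.25 log2 units (SE, adjusted p = 0.416). mt-Co1 was lower, by -0.78 ± 0.25 log2 units (SE, adjusted p = 0.00741), and mt-Nd2 higher, by 0.74 ± 0.22 log2 units (SE, adjusted p = 0.00478).

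**Figure D4:**
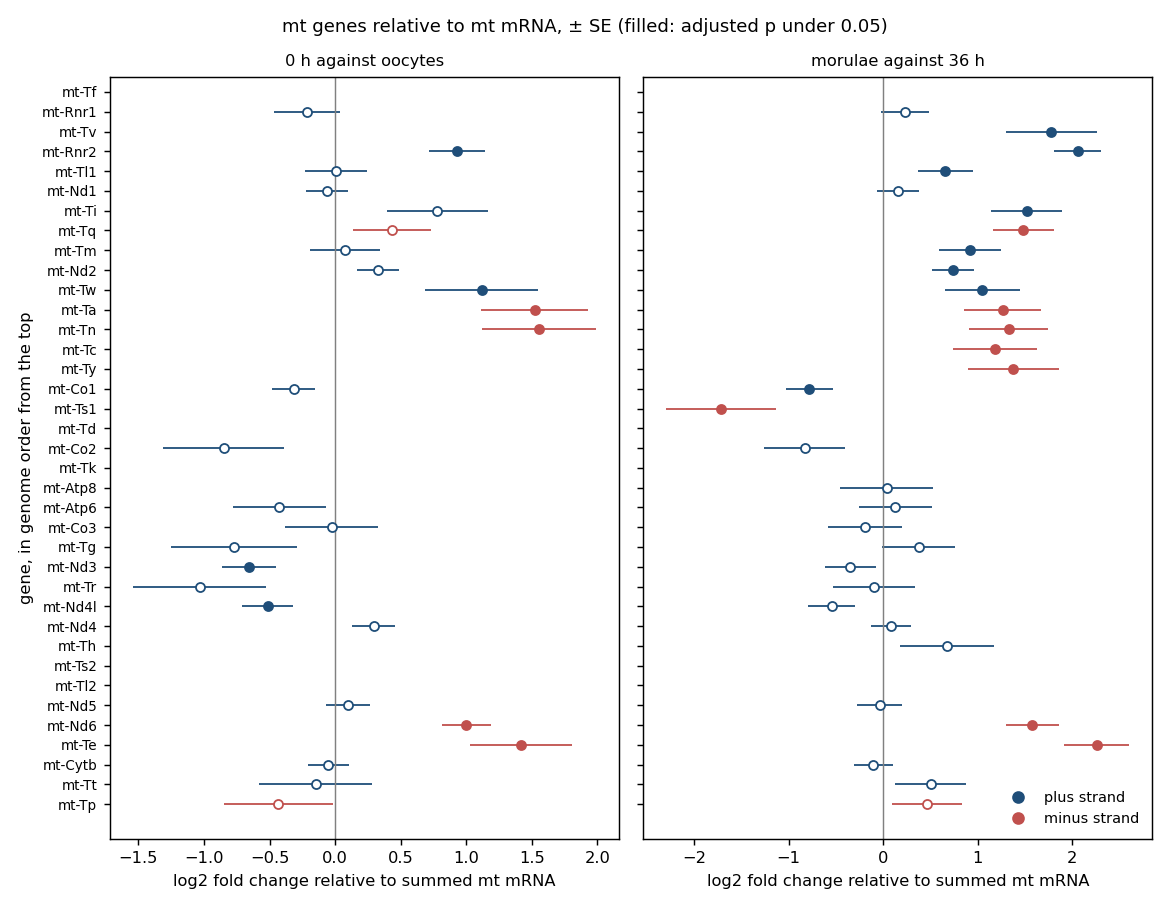
Log2 fold change relative to summed mitochondrial mRNA, with standard error, for each member tested, in genome order from the top, at 0 h against oocytes and in morulae against 36 h; red points are minus-strand genes, filled points passed an adjusted p of 0.05, and missing points were not tested. mt-Nd6, mt-Te, mt-Ta and mt-Tn are filled right of 0 in both panels.

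The balance of the 2 rRNAs, which leave the genome in 1 precursor, also differed by stage. mt-Rnr2 counts per 100 mt-Rnr1 counts were 566, 739 and 913 at 0 h (lowest, median and highest), against 275, 302 and 353 in oocytes, without overlap. In morulae they were 520.0, 936 and 1481, against 251, 274 and 297 at 36 h, again without overlap. Embryos of 12, 16, 18 and 24 h had medians of 698, 317, 319 and 886. These are counts not divided by length, so a ratio can also move with where along each rRNA the reads lie, which was not tested.

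A letter b at the end of some titles, not explained in the labels, went with the rRNAs and with markers of blood and oviduct. At 16 h, 18 h, 22 h and 24 h both kinds of title occur, and all 5 libraries of 20 h carry the letter. Counts of rRNA per 100 counts of mitochondrial mRNA were 35 and 56.8 in the 24 h libraries with b, against 5.71 to 7.10 in those without. They were 34.6 to 59.9 with b at 22 h, against 5.80 to 17.3 without, and 36.5 to 89.6 with b at 16 h, against 15.0 to 21.8 without. At 18 h the 2 kinds overlapped, at 27.9 to 44.6 with b, against 13.4 to 34.7 without. The value of 34.7 is that of 18h replicate 3, whose mitochondrial mRNA share was 0.185%. The other libraries without b at 18 h ran from 13.4 to 16.2. In a fit with the hour as a covariate, mt-Rnr1 was higher with b by 1.53 ± 0.23 log2 units (SE, adjusted p = 2.63e-05) and mt-Rnr2 by 1.27 ± 0.23 log2 units (SE, adjusted p = 0.000218). These were the 2 members called higher of 30 tested, beside 10.9% of 13473 genes.

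The blood and oviduct marker sum divided the libraries by the letter at all 4 hours. It was 25.8 to 2046 CPM with b at 16 h, against 1.29 to 4.26 CPM without, and 14.4 to 30.6 CPM with b at 18 h, against 0 to 8.54 CPM without. At 22 h it was 132.26 to 5487 CPM with b, against 4.31 to 5.02 CPM without, and at 24 h 81.8 and 359 CPM with b, against 2.66 to 17.1 CPM without. Ovgp1 did not overlap at any of these hours and was 14.4 to 28.4 CPM with b at 18 h, against 0 to 2.85 CPM without. The globins were not raised in every such library: at 18 h the highest value of Hba-a1 was 1.64 CPM with b, against 3.799 CPM without. The median of Alas2 and of Ptprc was 0 with and without b at each of these hours. The part of these markers in the rRNA differences was not tested.

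The same libraries had lower relative levels of some mRNAs and tRNAs. With b, mt-Nd1 changed by -0.87 ± 0.25 log2 units (SE, adjusted p = 0.0108), mt-Nd2 by -0.79 ± 0.24 log2 units (SE, adjusted p = 0.0171), and mt-Cytb by -0.73 ± 0.24 log2 units (SE, adjusted p = 0.0249). mt-Tm changed by -1.65 ± 0.29 log2 units (SE, adjusted p = 0.000184). In all 6 members were lower, beside 12.1% of genes, and without 18h replicate 3 10 were lower, beside 11.8%. Results at these hours therefore depend on which libraries enter. Without the b libraries, mt-Rnr1 at 24 h against 12 h was -1.10 relative to mitochondrial mRNA (adjusted p = 0.0155), against 0.68 with them. Without the b libraries 0 members were called higher at 18 h against 0 h and 4 at 22 h, beside 5.09% and 8.62% of genes, and no 20 h library was left. Whether the letter marks a batch was not tested.

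**Figure D5:**
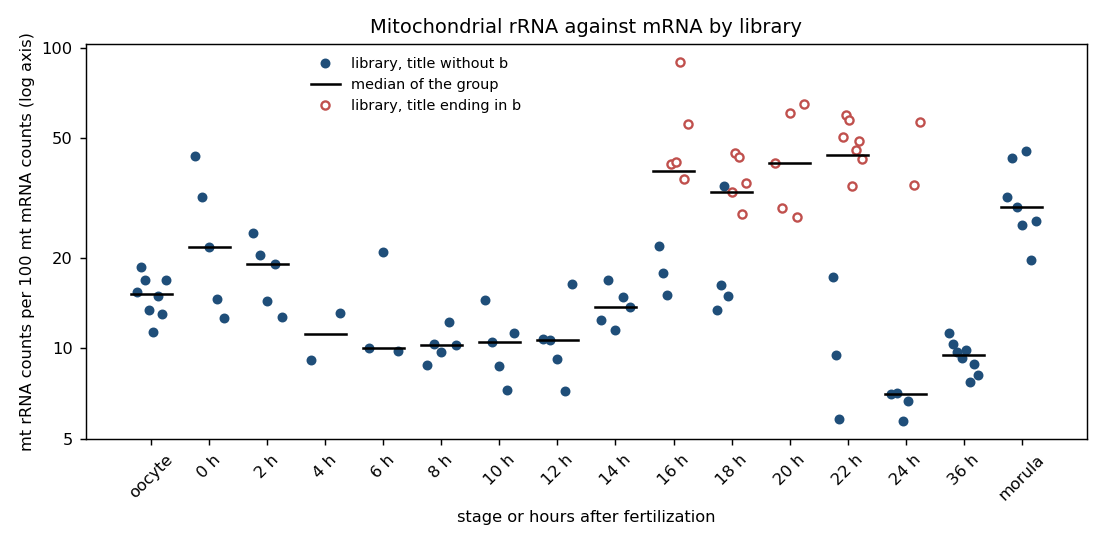
Counts of mt-Rnr1 and mt-Rnr2 per 100 counts of the 13 mitochondrial protein genes (log axis) in each of 96 libraries, by stage or hours after fertilization; bars are group medians and open circles are libraries whose title ends in b. Open circles lie between 27.4 and 89.6, and the 4 filled circles at 24 h between 5.71 and 7.10.

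Genes of the nucleus that transcribe, maintain and process mitochondrial nucleic acids were read from the same fits, as 2 lists of 17 and 29 genes of which 17 and 28 were in the table. At 0 h against oocytes, 3 listed genes were higher and 7 lower of 32 tested over both lists, beside 45.8% of all genes called in either direction. Fastkd2, which binds mitochondrial RNA, changed by -2.77 ± 0.42 log2 units (SE, adjusted p = 3.06e-05). The mitochondrial transcription factor Tfb2m changed by -0.72 ± 0.21 log2 units (SE, adjusted p = 0.00776), and Trmt10c, a subunit of mitochondrial RNase P, by 0.92 ± 0.22 log2 units (SE, adjusted p = 0.00127). At 12 h against 0 h, 7 were higher and 2 lower of 28 tested, beside 39.0% of all genes. Here Fastkd2 changed by 3.34 ± 0.50 log2 units (SE, adjusted p = 8.05e-05), and the poly(A) polymerase Mtpap by 1.41 ± 0.21 log2 units (SE, adjusted p = 5.12e-05). The single-stranded DNA binding protein Ssbp1 changed by 1.59 ± 0.42 log2 units (SE, adjusted p = 0.00562) and Tfb2m by 1.16 ± 0.27 log2 units (SE, adjusted p = 0.00283). These are levels of poly(A)-primed nuclear mRNA, and longer tails cannot be told apart from more mRNA.

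At 24 h against 12 h, 6 listed genes were higher and 0 lower of 34 tested, beside 21.7% of all genes, among them Mterf4, which acts with Nsun4 in ribosome assembly, at 1.43 ± 0.37 log2 units (SE, adjusted p = 0.0135). At 36 h against 24 h, 13 were higher and 9 lower of 39 tested, together close to the 53.5% of all genes called in either direction. The lists were not tested as sets, and whether their changes go with those of the members was not tested. The 16S rRNA methyltransferases Mrm1 and Mrm3 changed by 4.43 ± 0.79 log2 units (SE, adjusted p = 0.000213) and 3.98 ± 0.82 log2 units (SE, adjusted p = 0.000703). The packaging and transcription factor Tfam changed by 1.81 ± 0.60 log2 units (SE, adjusted p = 0.0169), and the mitochondrial DNA helicase Twnk by 1.76 ± 0.39 log2 units (SE, adjusted p = 0.00115). In the other direction Mterf4 changed by -3.02 ± 0.59 log2 units (SE, adjusted p = 0.000472) and Mtpap by -2.33 ± 0.30 log2 units (SE, adjusted p = 1.52e-05). In morulae against 36 h, 15 were higher and 9 lower of 41 tested, beside 71.8% of all genes. The transcription elongation factor Tefm changed by 3.15 ± 0.48 log2 units (SE, adjusted p = 2.62e-06). Slirp, which with Lrpprc stabilises mitochondrial mRNAs, changed by 3.18 ± 0.30 log2 units (SE, adjusted p = 2.34e-09), and the 12S rRNA methyltransferase Nsun4 by -5.17 ± 0.52 log2 units (SE, adjusted p = 5.28e-09).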

How the data were processed

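RNA of single oocytes and embryos was amplified by the SMART-Seq v4 kit and indexed with Nextera XT, per the labels' protocols, and the submitters' processing notes name Trimmomatic 0.39, STAR, featureCounts and mm10. The authors deposited 1 table of expected counts, in which 28.4% of non-zero gene values are not whole, so a read can be shared between rows; how shares were set is not given in the sources used here. Counts were rounded for the models, where the design had foreseen whole counts. Levels are CPM over the 55401 gene rows, leaving out 873 repeat rows; 55141 identifiers matched a GENCODE symbol.

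Tests used edgeR 4.0.16 (R 4.3.3; TMM scaling, filterByExpr, quasi-likelihood F test, Benjamini-Hochberg adjustment over all genes, threshold 0.05); the standard error is the log2 change over the root of F. Alternatives used DESeq2 1.42.0, other scalings and filters, left-out libraries and added copies. Copies came from BLAST 2.17.0 on GENCODE transcripts (99% identity over 200 bases). The 5 pairwise fits were also run on counts simulated from the fitted spread of these data, which cannot show effects of batch or of other cells.

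The members and lists were chosen with earlier results of these data known. The genes set to be named were the 13 mRNAs and 2 rRNAs, the 6 tRNAs of highest mean, and at most 3 genes in each direction from each nuclear list. Not each of them is given in each comparison, and of the 6 tRNAs mt-Ti is not described. Other tRNAs, such as mt-Ta, mt-Tn, mt-Tw and mt-Th, are named in addition. Marker lists (cumulus and granulosa cells, blood and oviduct, oocyte, 2-cell, morula) appear as sums, and genes of the blood and oviduct list and of the morula list also singly. A library is 1 oocyte or embryo, so p-values measure the spread between single embryos; nothing ties embryos to females. Depth ran from 10378 to 6795311 counts, and floors of 3 counts cover counting error only. Title numbers were checked as a pairing and did not pair the groups.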

Additional observations from a re-analysis of the deposited data

Results flagged for a closer look

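In 266 groups of 4 to 10 libraries the highest and lowest library were set against the others, and 31 values from 13 libraries stood apart by Dixon's 95% criterion, which chance alone meets in about 1 of 20 groups.

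At 16 h, replicate 1 held 2.01% mitochondrial mRNA (next 1.12%) and 0.0256% tRNA (next 0.0136%), with 8907 CPM of mt-Cytb, 2641 of mt-Nd1, 2092 of mt-Nd2, 468 of mt-Nd3, 420.5 of mt-Nd4l and 19.6 of mt-Co3, each the highest of its group. Replicate 6 of 16 h had the highest rRNA share, 0.859% (next 0.478%), with 7024 CPM of mt-Rnr2. At 12 h, replicate 5 had the highest rRNA share, 0.224% (next 0.125%), with 302 CPM of mt-Rnr1 and 1937 of mt-Rnr2, and replicate 4 had the highest mt-Co3, 12.5 CPM. At 14 h, replicate 4 had the lowest mRNA share, 0.630% (next 0.880%).

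At 36 h, replicate 6 had the highest mt-Co1, mt-Nd1 and mt-Nd4, at 20720.0, 25110.0 and 19500.0 CPM to 4 digits. At 20 h, replicate 1 had the highest mt-Nd1 (1418 CPM), mt-Nd5 (923 CPM) and mt-Nd6 (163 CPM). Replicate 5 of 10 h, which goes against its label, had the lowest mt-Nd2 (214 CPM) and mt-Nd4l (45.6 CPM). At 18 h, replicate 3 had the lowest tRNA share, 0.00132%, and replicate 9 the highest mt-Atp6 (19.9 CPM) and mt-Atp8 (4.37 CPM). At 24 h, replicate 6 had the lowest mt-Atp8, 0.326 CPM, which lies under the floor of 3 counts in that library. Among morulae, replicate 2 had the highest rRNA share, 1.96% (next 1.10%), with 17990.0 CPM of mt-Rnr2 to 4 digits. Morula replicate 4, with 10378 counts, had the highest mt-Atp6 and mt-Co3, both 96.4 CPM, which also lies under the floor of 3 counts in that library.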

How the results depend on the processing

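Of the alternatives to 223 values of single genes, 3646 kept direction and call, 2 reversed and most of the rest lost a call: without the 24 h libraries whose titles end in b, mt-Rnr1 relative to mitochondrial mRNA at 24 h against 12 h was -1.10, and mt-Rnr2 at 36 h against 24 h was 0.20. Of counts and shares 452 stayed within bounds and 64 moved. The number lower at 0 h against oocytes (20) was 13 in 1 fit of all libraries. The number higher at 24 h against 12 h (4) was 9 with library size alone, 2 without a filter on low counts and 9 without the b libraries. The title number as a replicate block, where same-numbered libraries had correlations of deviations from -0.17 to 0.25 and shared only a number, gave 8 there, against 7 for the same libraries without the block; it gave 20 higher at 36 h against 24 h and 0 higher in morulae. The 1 higher in morulae was also 0 with DESeq2, RLE size factors or no filter. Without the b libraries, relative counts were 2 lower at 24 h against 12 h, and 1 higher and 0 lower at 36 h against 24 h. Without 0h replicates 1 and 2 they were 2 higher and 4 lower at 0 h against oocytes and 0 lower at 12 h. Without the b libraries, against 0 h, 1 was lower at 10 h (as with library size alone), and the numbers higher were 0 at 14 h, 0 at 18 h and 4 at 22 h. Without 10h replicate 5 they were 1 at 10 h, 8 at 20 h and 12 at 22 h. Without 18h replicate 3, 10 were lower with b. Leaving out each library in turn gave 19 to 21 lower at 0 h, 10 to 12 higher at 12 h, 1 to 8 higher at 24 h, 27 to 31 higher at 36 h, and 13 to 17 lower and 0 to 2 higher in morulae; relative to mitochondrial mRNA it gave 5 to 7 higher and 2 to 4 lower at 0 h, 2 to 4 lower at 12 h, 0 to 3 lower at 36 h, and 12 to 14 higher and 2 to 3 lower in morulae. Adding the nuclear copies put median mRNA shares at 2.81% in oocytes, 1.14%, 0.714%, 0.850%, 0.850%, 0.974%, 1.36%, 1.97%, 1.73%, 1.79%, 1.71%, 1.49%, 1.90% and 4.04% at 0 h to 24 h in steps of 2 h, 14.3% at 36 h and 5.01% in morulae; with repeats in the total, 4 h was 0.480%. Where no share of all genes stands beside a count, a move of the members cannot be told apart from a move of all genes. The cause of these moves was not tested. Depth limits morula replicate 4 and the tRNAs most.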

Other observations

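With copies added, mt-Cytb made up a median of 19.1% of mitochondrial mRNA counts in oocytes (range 17.4% to 21.1%), 23.6% at 36 h (20.8% to 28.3%) and 23.0% in morulae (21.9% to 28.3%). The share of mt-Co3, a core subunit of cytochrome c oxidase, was 10.9% in oocytes (9.27% to 13.1%), 9.74% at 36 h (7.94% to 12.7%) and 4.80% in morulae (4.39% to 8.08%). That of mt-Co2 was 8.26% in oocytes, 8.00% at 36 h and 4.49% in morulae, where the highest library (5.33%) lay below the lowest at 36 h (7.30%). That of mt-Nd2 was 4.69% in oocytes, 4.76% at 36 h and 9.62% in morulae, where the lowest library (6.20%) lay above the highest at 36 h (5.46%).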
